A study of Homo sapiens with 3 samples.

Results

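The BCL2 family sets whether the outer mitochondrial membrane stays sealed during cell stress, and this account follows 10 of its genes through a DDX24 knockdown experiment. The genes were chosen by name as BCL2 family members with a gene model on an assembled chromosome, and all 10 were found among 67008 gene models. They are the pro-survival genes BCL2, BCL2L1, BCL2L2 and MCL1, the effector genes BAX and BAK1, and the BH3-only genes BCL2L11, BID, BAD and BMF. RNA was sequenced after poly(A) selection from HEK293T, a line derived from human embryonic kidney; it expresses SV40 large T antigen and holds the adenoviral E1 region, which encodes a viral homolog of BCL2. The DDX24 knockdown group held 2 libraries, 1 infected with lentivirus for the hairpin shDDX24-1 and 1 for the hairpin shDDX24-2. The control group held 1 library, from cells labelled WT and infected with the pLKO.1 vector. All cells were taken 72 hours after infection at 5 particles per cell with 8 µg/mL polybrene, so the control shares the viral exposure. The labels name no hairpin for the control, so any effect of expressing a hairpin cannot be told apart from the knockdown. DDX24 encodes an RNA helicase of the DEAD-box type, and the series title links it to apoptosis through HMOX1, the gene of heme oxygenase.

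Effector proteins oligomerise in the outer mitochondrial membrane and release cytochrome c, which starts caspase activation. Pro-survival proteins hold effectors and BH3-only proteins in check by binding the BH3 helix. BH3-only proteins carry stress signals by occupying the groove of pro-survival proteins or by activating the effectors directly. Much of this control is exerted on the proteins, through phosphorylation, cleavage and degradation, which RNA counts do not measure.

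The libraries held 36738685 counts for shDDX24-1, 37828270 for shDDX24-2 and 52198744 for pLKO.1. DDX24 itself was listed at 0 counts in all 3 libraries on its assembled chromosome. It has a copy on another scaffold, whose counts are not reported here, so neither the knockdown nor the labels were checked on it. Levels below are CPM, counts relative to library size, after TMM scaling, a correction for differences in library make-up. Of 7 markers of HEK293-type cells and embryonic kidney, VIM was at 349, 321 and 334 CPM in shDDX24-1, shDDX24-2 and pLKO.1, while PAX8 had at most 1 count and LHX1 at most 7 in any library. The neurofilament genes NEFM and NEFL, which such lines express, were at 27.4 and 30.8 against 19.7 CPM and at 10.8 and 15.1 against 9.60 CPM, and PAX2 was at 1.49 and 1.70 against 1.27 CPM. Markers of other cell types summed to 25.4, 20.4 and 22.3 CPM, nearly all of it COL1A1, with CD3E at 0, PTPRC at 2 counts or fewer and CDH5 at 10 or fewer. LHX1 and PTPRC each have a copy on another scaffold, as DDX24 has, so their low counts cannot be read as absence. HBB had 8 and 4 counts with the hairpins and 75 in pLKO.1. The part of any such difference in the results below was not tested.

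Upstream sequences are shown for 3 members. BAX and BID were the members whose counts lay below the control with both hairpins by more than counting error, and BAK1 is the other effector, for which that was not so. Each stretch comes from RefSeq (GRCh38.p14), runs 5′ to 3′ and ends at the base before the gene model of the counted table. Capitals mark matches, on either strand, to any of 4 common promoter motifs. The GC box, bound by SP1-type factors, was searched as GGGCGG. The CCAAT box, bound by the NF-Y complex, was searched as CCAAT. For the TATA box, where the TATA-binding protein sits, the letters were TATAAA. For the E-box, bound by MYC and USF proteins, they were CACGTG. Promoter entries were found for 8 of the 10 members, and 6 of those reach at least 100 bases beyond the gene model.
BAX, chr19:48954625-48954814, plus strand: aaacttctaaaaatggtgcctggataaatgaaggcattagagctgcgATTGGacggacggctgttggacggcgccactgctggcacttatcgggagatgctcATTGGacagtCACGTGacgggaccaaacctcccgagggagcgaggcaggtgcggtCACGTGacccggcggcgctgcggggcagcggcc
BAK1, chr6:33580294-33580526, minus strand: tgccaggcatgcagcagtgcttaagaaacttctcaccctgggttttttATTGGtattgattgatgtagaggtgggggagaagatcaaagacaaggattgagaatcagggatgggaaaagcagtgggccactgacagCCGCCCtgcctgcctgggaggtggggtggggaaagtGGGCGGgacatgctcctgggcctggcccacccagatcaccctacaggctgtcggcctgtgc
BID, chr22:17774771-17774915, minus strand: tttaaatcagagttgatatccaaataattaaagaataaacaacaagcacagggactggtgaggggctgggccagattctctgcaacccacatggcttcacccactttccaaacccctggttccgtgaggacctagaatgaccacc

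The BAX stretch of 190 bases held 2 E-boxes and 2 CCAAT boxes. An E-box was present in 4.13% and a CCAAT box in 25.8% of all 35116 RefSeq promoter windows of that length. The BAK1 stretch of 233 bases held 2 GC boxes, present in 40.4% of windows of its length, and 1 CCAAT box, present in 30.9%. In the BID stretch of 145 bases, which lies upstream of the outermost of 5 annotated starts, none of the 4 motifs was found. A match describes the letters and is not evidence of binding.

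No member passed the test of knockdown against control. With edgeR's quasi-likelihood test over 17713 genes, 0 of 10 members passed at an adjusted p of 0.05 in either direction, against 0.0113% of all genes (2 genes, both lower in the knockdown). Every member had an adjusted p of 0.999 after Benjamini-Hochberg adjustment, and 0 had an unadjusted p under 0.05, against 3.88% of all genes. Among the 10995 genes that reached 5 CPM in any library, as every member did, 251 had an unadjusted p under 0.05. The same members were also all below threshold in DESeq2 and in limma-voom, with 0 calls each. The median log2 fold change of the members was 0.02, and that of all genes tested was 0.01. The members' median changed sign with library totals (-0.0046) and after correction for GC content and transcript length (-0.0407). The median of all genes tested was -0.0213 with library totals and -0.0015 after that correction. The spread in this test comes from the difference between both hairpin libraries, with 1 residual degree of freedom per gene. The fit moderates it with the spread of all genes, for a median total of 6.67 degrees of freedom. A gene's SE therefore does not reflect its own hairpin difference alone, and the lone control is assumed to vary likewise.

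The fitted intervals hold only if the lone control varies as the hairpin libraries do, which could not be observed. They therefore set no firm limit on the size of a difference. The fitted 95% interval of each member lay inside 2-fold in either direction, and the outermost bounds were 0.562-fold, for BMF, and 1.63-fold, for BCL2. For MCL1, the member with the most counts, the interval was 0.815-fold to 1.27-fold. HMOX1, the gene in the title, was at 49.2 and 50.0 CPM with the hairpins and 91.3 CPM in pLKO.1. Its log2 fold change was -0.88 (95% interval -1.18 to -0.57, edgeR adjusted p = 0.873), farther from 0 than that of any of the 10 members. The call for HMOX1 turned with the fit: the adjusted p was 0.0128 in DESeq2 and 0.0178 with library totals in edgeR, and in the 6 other fits it ranged from 0.060 to 0.999.

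**Figure D1:**
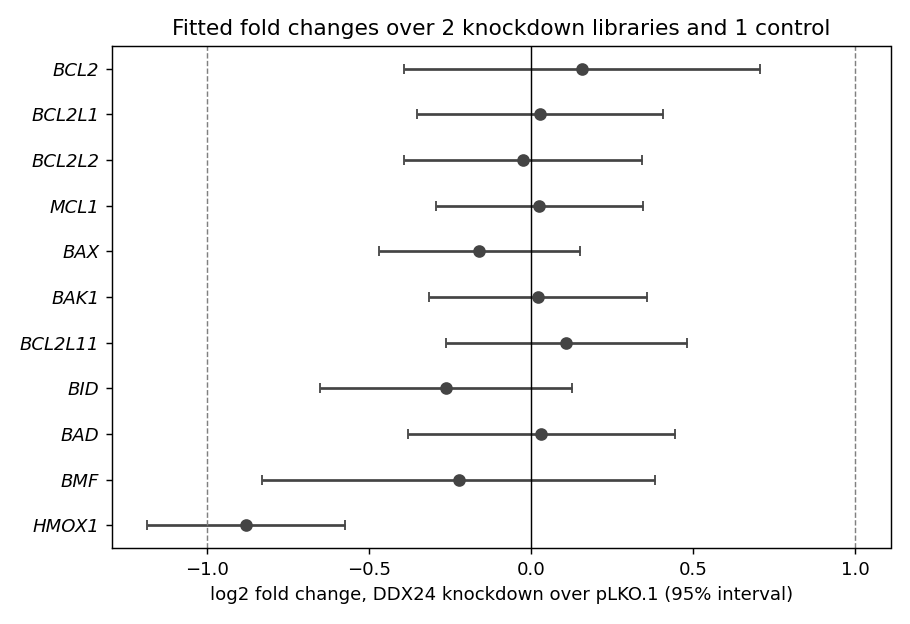
Fitted log2 fold change of DDX24 knockdown over pLKO.1 for the 10 members and HMOX1, with points for the edgeR estimate from 2 knockdown libraries and 1 control and bars for its 95% interval. All member bars cross 0 and lie between the dashed lines at 2-fold, and the HMOX1 bar lies wholly below 0, between -1.18 and -0.57.

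Among the pro-survival genes, levels with the hairpins were close to the control. MCL1 (chromosome 1, 150574551 to 150579738, minus strand) encodes a short-lived guardian that binds BAK1 and several BH3-only proteins, BIM among them. It was at 201 CPM in shDDX24-1, 221 CPM in shDDX24-2 and 207 CPM in pLKO.1. The control lay between the hairpins. The fitted log2 fold change of MCL1 was 0.02 with an SE of 0.13 (edgeR adjusted p = 0.999).

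BCL2L1 (chromosome 20, 31664452 to 31723989, minus strand), the gene of BCL-XL, was at 21.9 and 21.4 CPM with the hairpins and 21.3 CPM in pLKO.1. BCL2L2 (chromosome 14, 23298790 to 23311759, plus strand), the gene of BCL-W, was at 24.5 and 24.6 CPM against 25.0 CPM. The log2 ratios with shDDX24-1 and shDDX24-2 were 0.04 and 0.01 for BCL2L1 and -0.03 and -0.02 for BCL2L2, and each counting interval included 0.

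BCL2 (chromosome 18, 63123346 to 63320128, minus strand), the founding member of the family, had 216 and 239 counts with the hairpins and 291 in the deeper pLKO.1 library. Scaled for depth this was 5.84 and 6.44 CPM against 5.51 CPM, higher with both hairpins. Its log2 ratio over pLKO.1 was 0.08 with shDDX24-1 (95% exact Clopper-Pearson interval -0.18 to 0.34) and 0.22 with shDDX24-2 (-0.03 to 0.48). Both intervals, which cover counting error only, included 0. In the fit BCL2 had a log2 fold change of 0.16 with an SE of 0.23 (edgeR adjusted p = 0.999).

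The effectors differed in pattern. BAX (chromosome 19, 48954815 to 48961798, plus strand), which moves from the cytosol to mitochondria when activated, was at 82.2 and 78.1 CPM with the hairpins and 89.6 CPM in pLKO.1. Both knockdown libraries were below the control, with a mean of 80.2 ± 2.87 CPM (SD, n = 2). The log2 ratio was -0.12 with shDDX24-1 (-0.19 to -0.06) and -0.20 with shDDX24-2 (-0.26 to -0.13), so counting error alone did not span 0. The log2 fold change of -0.16 ± 0.13 (SE) did not pass (edgeR adjusted p = 0.999). Among the 10995 genes that reached 5 CPM in any library, 30.9% had an absolute log2 fold change at least as large.

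BAK1 (chromosome 6, 33572547 to 33580293, minus strand), which resides on mitochondria, was at 54.5 CPM in shDDX24-1, 60.2 CPM in shDDX24-2 and 56.5 CPM in pLKO.1. The control lay between the hairpins. Its log2 fold change was 0.02 ± 0.14 (SE). No test was made of a difference between BAX and BAK1.

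Among the BH3-only genes the hairpin libraries were farther apart. BID (chromosome 22, 17734138 to 17774770, minus strand) encodes the protein that caspase-8 cleaves to link death receptors to mitochondria. It was at 24.6 and 28.4 CPM with the hairpins and 31.8 CPM in pLKO.1. The log2 ratio was -0.37 with shDDX24-1 (-0.49 to -0.25) and -0.16 with shDDX24-2 (-0.28 to -0.05), below the control in both. Its log2 fold change, -0.26 ± 0.16 (SE, edgeR adjusted p = 0.999), was the lowest of the 10, and 12.1% of genes at 5 CPM or more had one at least as large in size.

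BMF (chromosome 15, 40087890 to 40108892, minus strand), which is held by dynein light chain at the cytoskeleton, was the member with the fewest counts in the hairpin libraries. It had 160 and 204 counts with the hairpins and 303 in pLKO.1, or 4.33 and 5.50 CPM against 5.74 CPM. The log2 ratio was -0.40 with shDDX24-1 (-0.69 to -0.13) and -0.06 with shDDX24-2 (-0.32 to 0.20). The departure from the control was therefore mostly that of 1 library, and the log2 fold change was -0.22 ± 0.25 (SE).

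BCL2L11 (chromosome 2, 111119378 to 111168445, plus strand), the gene of BIM, an activator of both effectors, was at 41.1 CPM in shDDX24-1, 47.6 CPM in shDDX24-2 and 41.1 CPM in pLKO.1. Only the shDDX24-2 library stood apart, at a log2 ratio of 0.21 (0.12 to 0.30), where shDDX24-1 was at 0.00 (-0.10 to 0.09). BAD (chromosome 11, 64269830 to 64284704, minus strand), which phosphorylation and 14-3-3 proteins keep in the cytosol, was at 19.5 and 22.2 CPM with the hairpins and 20.4 CPM in pLKO.1. The control again lay between them. The log2 fold changes were 0.11 ± 0.16 for BCL2L11 and 0.03 ± 0.17 for BAD (SE).

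**Figure D2:**
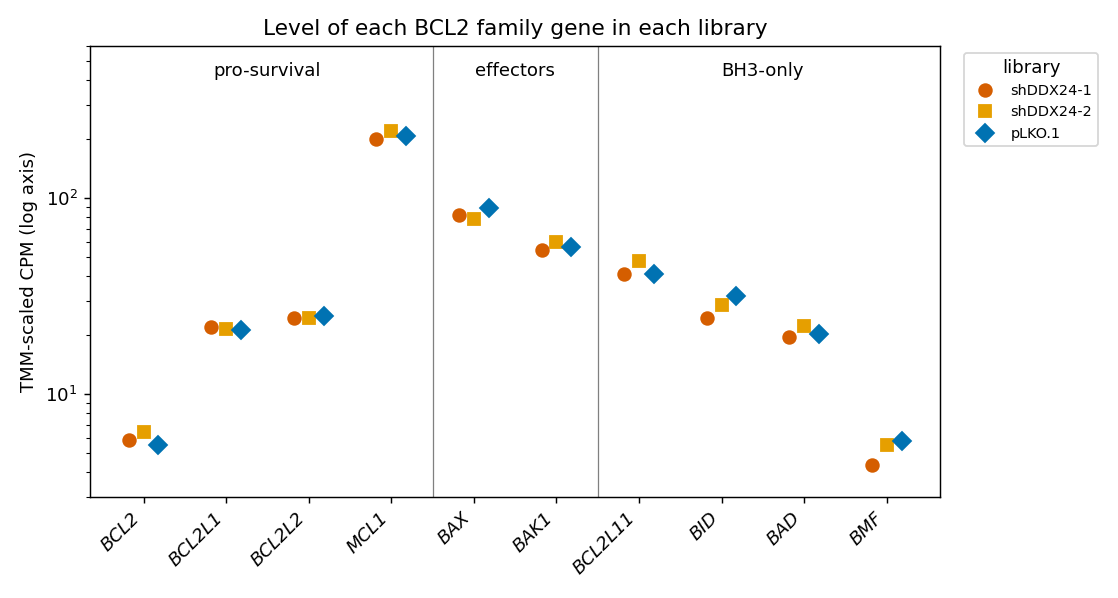
TMM-scaled CPM on a log axis for each member in shDDX24-1 (circles), shDDX24-2 (squares) and pLKO.1 (diamonds), 1 library each, grouped by role. The 3 libraries lie close together for every gene, while the genes run from about 4.33 CPM (BMF in shDDX24-1) to 221 CPM (MCL1 in shDDX24-2).

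Counted by sign with no test, 2 members (BCL2 and BCL2L1) were higher with both hairpins than in the control, 4 (BCL2L2, BAX, BID and BMF) were lower with both, and 4 had opposite signs. Over all genes tested the shares were 31.9% higher, 32.0% lower and 36.1% opposite, and both ratios share the control library. Of the 10995 genes at 5 CPM or more in any library, 3782 were higher with both, 3139 lower and 4074 opposite. With shDDX24-1 the interval for counting error lay below 0 for 4 members (MCL1, BAX, BID and BMF), against 19.8% of all genes, and above 0 for 0 members, against 20.5%. With shDDX24-2 it lay below 0 for 2 members (BAX and BID), against 21.5%, and above 0 for 3 (MCL1, BAK1 and BCL2L11), against 23.8%. Intervals lay below 0 with both hairpins for 2 members, BAX and BID, against 9.13% of all genes. They lay above 0 with both for 0 members, against 10.2% of all genes. Counting intervals narrow with more counts, and only 10995 of the 17713 genes tested reached 5 CPM in any library, as every member did. Shares of intervals among genes at that level were not computed, so the members' intervals were not compared at like depth. The members' log2 ratios had an SD of 0.16 with shDDX24-1 and 0.14 with shDDX24-2, where genes at 5 CPM or more had SDs of 0.20 and 0.25.

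**Figure D3:**
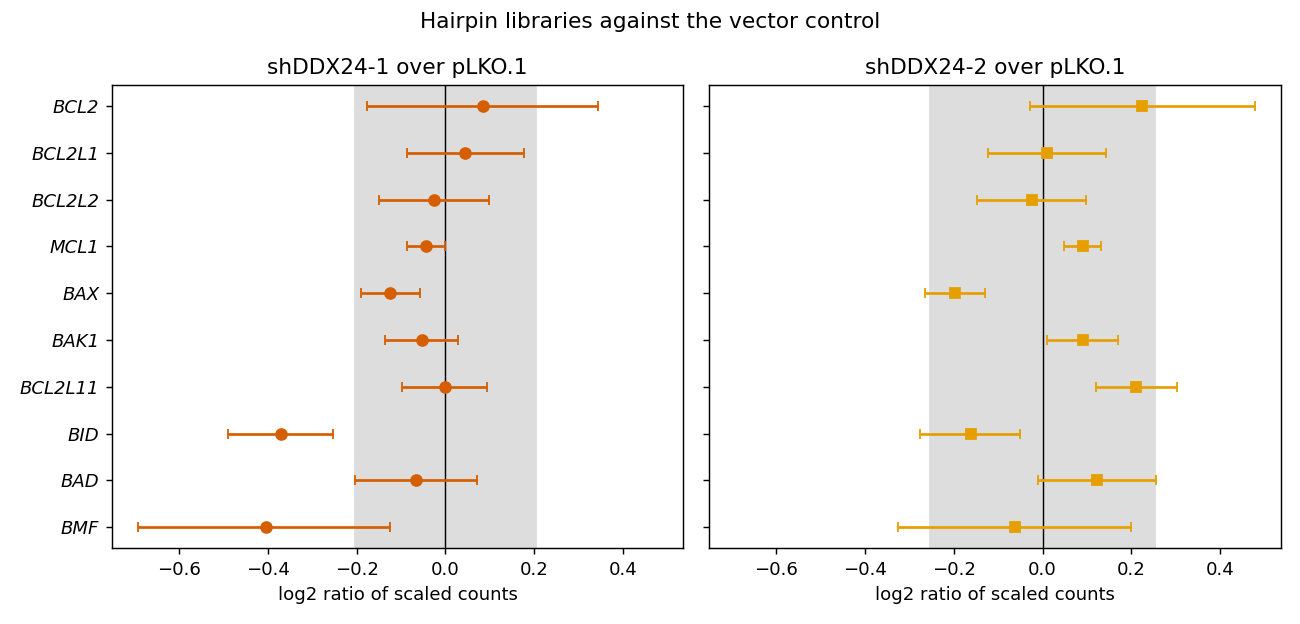
Log2 ratio of each hairpin library to pLKO.1 for the 10 members, with bars for the 95% exact interval of counting error and a grey band for 1 SD of the ratios over 10995 genes at 5 CPM or more. BID and BMF with shDDX24-1, at -0.37 and -0.40, are the points outside the band, and with shDDX24-2 every point is inside it.

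The hairpin libraries also differed from each other. Without a test, 8 of 10 members were higher in shDDX24-2 than in shDDX24-1, the exceptions being BCL2L1 and BAX, against 48.9% of all genes. BCL2L2, counted among the 8, was level between the hairpins at a log2 ratio of 0.0009 (-0.13 to 0.14). The interval for counting error lay above 0 for 6 members (MCL1, BAK1, BCL2L11, BID, BAD and BMF), against 22.5% of all genes, and below 0 for none, against 20.1%. These shares too include genes with fewer counts than any member, whose intervals are wider. BMF had the largest such ratio, a log2 of 0.34 (0.04 to 0.65), followed by BCL2L11 at 0.21 (0.11 to 0.31) and BID at 0.21 (0.08 to 0.34). Each hairpin has 1 library, so this difference has no replicate check. Accordingly the median log2 ratio of the members to the control was -0.05 with shDDX24-1 and 0.05 with shDDX24-2, where all genes tested had medians of 0.00 with both. Genes at 5 CPM or more in any library had medians of 0.0040 with shDDX24-1 and 0.0243 with shDDX24-2. With library totals the members' median for shDDX24-2 was 0.0056.

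Levels of different genes were compared per length, as CPM per kilobase of annotated exon. On that scale MCL1 was highest, at 46.0 and 50.5 with the hairpins and 47.4 in pLKO.1. BAX followed at 31.8 and 30.2 against 34.6, then BAK1 at 24.6 and 27.2 against 25.5, and BAD at 11.4 and 13.0 against 11.9. This order of the leading genes was the same in all 3 libraries. BID, BCL2L1, BCL2L11 and BCL2L2 lay between 5.53 and 7.15 and changed places between libraries, so their order was not resolved. BMF was at 0.795 and 1.01 against 1.05, and BCL2 was lowest at 0.497 and 0.548 against 0.468. BCL2 has the longest annotated exon sequence of the 10, 11765 bases, which lowers its value on this scale.

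As shares of the family's summed level per length, pro-survival genes took 42.3% and 42.7% with the hairpins and 41.1% in pLKO.1. Effectors took 40.5% and 38.7% against 41.0%, and BH3-only genes 17.2% and 18.6% against 17.9%. The control lay outside the hairpin libraries for the first 2 classes and between them for the third. MCL1 alone held 33.0% and 34.0% against 32.3%, and BAX 22.8% and 20.4% against 23.6%. With the longest transcript as the length, a choice made after the data were seen, BAX came first instead, at 32.2% and 29.1% against 33.1%, and MCL1 was at 27.2% and 28.4% against 26.4%. The order of the classes changed with it: effectors took 45.4% and 42.9% against 45.9%, and pro-survival genes 35.8% and 36.4% against 34.4%.

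**Figure D4:**
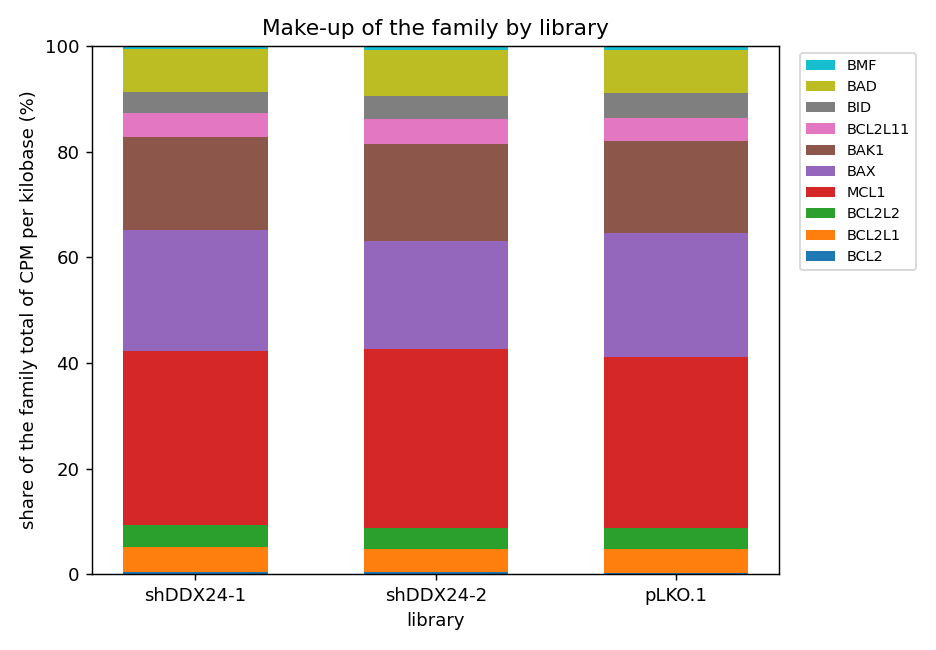
Share of each member in the family's summed CPM per kilobase of exon, 1 stacked bar per library. The bars of shDDX24-1, shDDX24-2 and pLKO.1 have nearly the same make-up, with MCL1, BAX and BAK1 as the widest bands in each.

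Ratios of counts within a library do not depend on scaling between libraries. The count ratio of BAX to BCL2, often read as a balance of death against survival, was 14.1 in shDDX24-1 (95% exact interval 12.2 to 16.2), 12.1 in shDDX24-2 (10.6 to 13.9) and 16.3 in pLKO.1 (14.4 to 18.4). It was lower with both hairpins, by a mean of 0.32 on the log2 scale (-0.21 with shDDX24-1 and -0.42 with shDDX24-2). The interval of shDDX24-2 did not overlap that of the control, and the interval of shDDX24-1 did. This ratio was not tested against the spread between libraries.

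The other 3 pairs were chosen after the counts had been seen. BAX to BCL2L1 was 3.75 in shDDX24-1 (3.47 to 4.05), 3.65 in shDDX24-2 (3.37 to 3.95) and 4.21 in pLKO.1 (3.94 to 4.50). BAK1 to MCL1, an effector and the guardian that binds it, was 0.271 and 0.273 against 0.273. BCL2L11 to MCL1 was 0.204 and 0.216 against 0.198. For each of these 3 pairs the intervals of both hairpin libraries overlapped that of the control. For BAX to BCL2L1 the overlap with shDDX24-2 was slight, between 3.94 and 3.95. On the log2 scale that ratio was -0.17 with shDDX24-1 and -0.21 with shDDX24-2, relative to the control. Overlap of intervals is not a test of a difference, so it does not set these pairs apart from BAX to BCL2. The lower BAX ratios thus came from genes whose own fold changes did not pass the test.

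**Figure D5:**
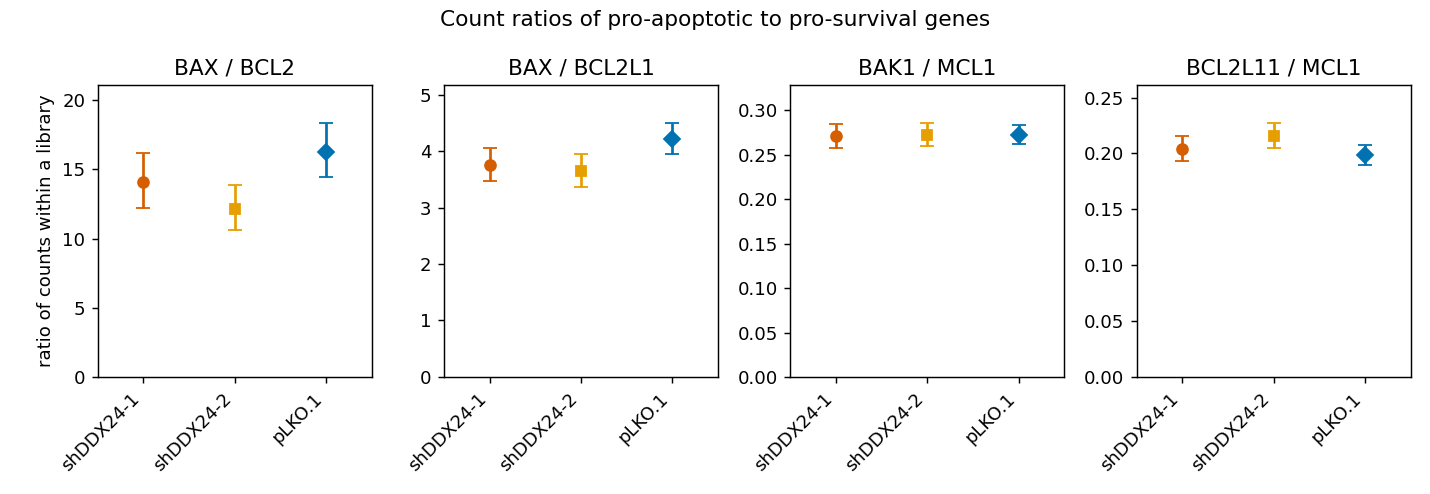
Count ratio of a pro-apoptotic gene to a pro-survival gene within each library, for 4 pairs, with bars for the 95% exact interval of counting error and axes that start at 0. BAX over BCL2 and BAX over BCL2L1 are lower in both hairpin libraries than in pLKO.1, and BAK1 over MCL1 is level at about 0.27 in each.

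Overlapping gene models limit some of these values, since the strand setting of the counting is not given. BAD shares 404 exon bases, 23.7% of its own, with GPR137 on the opposite strand, which was at 21.8 and 26.8 CPM with the hairpins and 22.2 CPM in pLKO.1. If the counting did not use strand, reads from that stretch cannot be told apart by gene. Both genes were highest in shDDX24-2, and the part of shared reads in this was not tested. BCL2L11 is the member whose GENCODE 29 model, used for its length and overlaps, has other coordinates than the counted model. In that annotation it shares 10.9% of its exon bases with MIR4435-2HG, which was at 6.68 and 5.44 CPM against 7.44 CPM, the opposite direction to BCL2L11 with shDDX24-2. BCL2L2 shares 4.92% with PPP1R3E, at 12.6 and 11.9 CPM against 17.0 CPM, and none with HOMEZ, which overlaps its gene model and was at 32.4 and 15.6 CPM against 29.4 CPM. BCL2L2 also shares 19.4% of its exon bases with the read-through model BCL2L2-PABPN1, which had 20 and 13 counts with the hairpins and 17 in pLKO.1. BCL2L1 shares 1424 exon bases with the antisense model ABALON, which had 1 count or fewer in each library. BAX overlapped no other gene model.

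Of 13 further family genes, 10 had enough counts to test and 0 passed, with 0 at an unadjusted p under 0.05. With both hairpins 4 were higher than in the control, 3 lower and 3 mixed, and the median log2 fold change was 0.02. PMAIP1, the gene of NOXA, a BH3-only partner of MCL1, was at 102 and 98.8 CPM against 89.5 CPM (log2 fold change 0.17 ± 0.13, SE). BIK, a BH3-only gene of the endoplasmic reticulum, was near the limit of counting with 19 and 11 counts against 37. BNIP3, a hypoxia-induced mitophagy receptor, was at 68.0 and 79.4 CPM against 66.6 CPM. BBC3, the gene of PUMA, was at 5.79 and 5.31 CPM against 5.87 CPM; it and BCL2L12 were added by name after their values were seen. BCL2L12 was at 75.8 CPM in shDDX24-1, 44.7 CPM in shDDX24-2 and 71.3 CPM in pLKO.1, so only the shDDX24-2 library was low. BCL2A1 and BCL2L14 were listed at 0 in all 3 libraries, and BCL2L14 has a copy on another scaffold.

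Downstream of the family, 15 of 15 genes of the mitochondrial pathway were tested and 0 passed, again with 0 at an unadjusted p under 0.05. With both hairpins 6 were higher, 4 lower and 5 mixed (median log2 fold change 0.04). CASP8, the initiator caspase that cleaves BID, was at 23.8 and 22.9 CPM with the hairpins and 28.8 CPM in pLKO.1 (log2 fold change -0.30 ± 0.15, SE, edgeR adjusted p = 0.999). Both hairpin libraries were below the control for CASP8, as they were for BID. VDAC2, the membrane channel that retains BAK1 at mitochondria, was at 176 and 158 CPM against 185 CPM (log2 fold change -0.15 ± 0.13, SE).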

How the data were processed

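The authors deposited whole-number read counts per gene model, not normalized, for 3 libraries. The submitters' processing notes name the build GRCh38 (hg38), STAR 2.7.3a and DESeq2 1.26. Which program counted reads, whether it used strand and which annotation it used is not given in the sources used here. Each library came from cells infected with a different virus, and the labels name no replicate cultures. The p-values therefore rest on the difference between both hairpin libraries, moderated over all genes. That difference mixes any effect particular to a hairpin with culture and technical spread, which cannot be told apart here.

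Counts were filtered with filterByExpr (minimum count 10, 17713 genes), scaled by TMM and tested with edgeR 4.0.16 quasi-likelihood (legacy = FALSE) in R 4.3.3, with Benjamini-Hochberg adjustment at 0.05. Standard errors are the log2 fold change over the square root of F, and fitted intervals use the total degrees of freedom of the fit (6.67). For each hairpin library, log2 ratios were taken with a prior count of 2. Clopper-Pearson intervals at 95% cover counting error only. Exon lengths and overlaps came from GENCODE release 29, and the fit was tested on simulated data.

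Members and lists were chosen with earlier results of these data known. Named were all members, HMOX1, DDX24, the 3 genes of lowest p per list, and overlapping models with at least 10% of a member's count. Some genes that this rule names are not reported here. No gene was ranked by likeness of pattern, for which 3 libraries are too few. Alternatives were DESeq2 1.42.0 and its size factors, library totals, other filters, limma-voom 3.58.1, the legacy fit, another prior count, an adjusted p of 0.1 and leaving out each hairpin. A fit corrected for GC content and transcript length (loess) was chosen after seeing the data.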

Additional observations from a re-analysis of the deposited data

How the results depend on the processing

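No member was called under any of 8 other fits, and 75 of 80 member values kept their direction. The 5 that turned were all near 0: with library totals MCL1 was at -0.0027 and BAK1 at -0.0065, and after correction for GC content and transcript length BCL2L1 was at -0.0147, BAK1 at -0.0349 and BAD at -0.0845 (log2 fold changes). BCL2, BCL2L2, BAX, BCL2L11, BID and BMF kept their direction in all 8. Without shDDX24-1 or shDDX24-2 in turn, the median of the members ranged from -0.0484 to 0.0503, so its sign followed the library kept. With both hairpins it was below 0 with library totals (-0.0046) and after the GC and length correction (-0.0407), against 0.02 in the fit reported. The median of all genes tested also fell with library totals, to -0.0213, and was -0.0015 after the GC and length correction. BMF was at -0.41 with shDDX24-1 alone and -0.06 with shDDX24-2 alone, and BCL2L11 at -0.0013 and 0.21. Those leave-one-out fits have no residual degrees of freedom and give no count of calls. The mean log2 difference of the BAX to BCL2 ratio ranged from -0.42 to -0.21. With library totals 1 member, BCL2, was higher with both hairpins. Over all genes the 2 calls became 0 with DESeq2 size factors, 0 without a low-count filter, 0 at 1 CPM or more in every library, 7 with library totals, 1 with limma-voom and 1 with the legacy fit; the cause was not tested. No paired analysis was possible because the labels pair neither hairpin library with the control. The lone control library limits every comparison.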

Other observations

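Genes that act on the family's transcription were tested in full, 10 of 10, and 0 passed edgeR's test, with 0 at an unadjusted p under 0.05. With both hairpins 6 were higher than in the control, 1 lower and 3 mixed, and the median log2 fold change was 0.05. MYC, a growth-promoting transcription factor, was at 278 and 235 CPM with the hairpins and 216 CPM in pLKO.1. FOXO1, a forkhead factor that activates BCL2L11, was at 26.1 and 26.9 CPM against 22.5 CPM.

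Of 17 genes for binding partners and turnover of the family's proteins, 15 were tested and 0 passed, with 0 at an unadjusted p under 0.05. With both hairpins 9 were higher, 2 lower and 4 mixed, with a median log2 fold change of 0.12. BECN1, an autophagy protein with a BH3 motif that binds BCL2, was at 80.1 and 56.8 CPM with the hairpins and 90.2 CPM in pLKO.1 (log2 fold change -0.40 ± 0.21, SE, edgeR adjusted p = 0.999). YWHAH, a 14-3-3 protein, was at 149 and 155 CPM against 130 CPM. DYNLL2, the dynein light chain that holds BMF, was at 144 and 183 CPM against 140 CPM, so mainly the shDDX24-2 library was high. MOAP1 was listed at 0 in every library and YWHAE at 1 count or fewer, and each has a copy on another scaffold.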
